A study of Homo sapiens with 12 samples.

Results

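Untreated cells of the prostate cancer lines LnCaP and 22RV1 were compared gene by gene, to describe what sets the lines apart before any treatment. The members were the 3 arrays labelled as untreated LnCaP and the 3 labelled as untreated 22RV1, which are 6 of the 12 arrays of the series, and all 11963 genes with a named probe set entered the comparison. The other 6 arrays hold the same lines after 24 h in 100 µM nicotine tartrate, with 3 arrays per line, and they serve here as a separate set of arrays for the same line difference and, in the shared fit, add to the estimate of each gene's spread. LnCaP is an established human line grown from a lymph node metastasis of a prostate adenocarcinoma, and 22RV1 is an established human line grown from a prostate carcinoma xenograft that regrew after castration of its host. The labels give the cell line and the treatment and name no vehicle for untreated cells, no androgen or serum conditions and no passage. Each line stands for 1 tumor, so a difference between them belongs to these lines and not to a class of tumors. Nothing says whether the 3 replicates of a group came from separate cultures, and the p-values below therefore speak only of the variation among arrays, part of which may be technical. The values are log2 expression values as the authors deposited them, RNA having been labelled and hybridised to single-colour Affymetrix arrays.

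The androgen receptor is a transcription factor that moves to chromatin when it binds testosterone or dihydrotestosterone, and there it acts with factors such as FOXA1 and HOXB13. In luminal prostate cells it drives secreted proteases of the kallikrein family, among them KLK3, which is prostate-specific antigen, and it lowers other genes, among them the UGT2B enzymes that conjugate androgens for removal. Both lines are widely used as androgen receptor positive models of prostate cancer.

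Promoters of 3 genes are shown because KLK3 and UGT2B15 stand on opposite sides of androgen control and because ALB had the largest difference of the gut and liver genes. They are RefSeq windows on GRCh38.p14, from 250 bases before to 50 bases after the gene's start, on the gene's own strand. KLK3 lies at chr19:50854665-50854964 (plus strand), UGT2B15 at chr4:68670603-68670902 (minus strand) and ALB at chr4:73404037-73404336 (plus strand). Capitals mark AGAACA, the core of an androgen response element, in KLK3 and UGT2B15, and GTTAAT, the core of the binding sequence of the liver factor HNF1, in ALB. ALB was picked for display after its values were seen.
KLK3: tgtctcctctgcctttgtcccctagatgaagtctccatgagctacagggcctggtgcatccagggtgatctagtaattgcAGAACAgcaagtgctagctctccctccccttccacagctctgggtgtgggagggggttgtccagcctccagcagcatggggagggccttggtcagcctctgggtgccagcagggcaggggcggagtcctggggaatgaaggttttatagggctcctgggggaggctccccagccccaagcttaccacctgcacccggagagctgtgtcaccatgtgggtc
UGT2B15: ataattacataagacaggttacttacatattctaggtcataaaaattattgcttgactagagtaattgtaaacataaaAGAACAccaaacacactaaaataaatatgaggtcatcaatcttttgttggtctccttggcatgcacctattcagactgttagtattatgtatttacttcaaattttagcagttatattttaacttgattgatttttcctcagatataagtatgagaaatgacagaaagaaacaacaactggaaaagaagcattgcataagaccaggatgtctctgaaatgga
ALB: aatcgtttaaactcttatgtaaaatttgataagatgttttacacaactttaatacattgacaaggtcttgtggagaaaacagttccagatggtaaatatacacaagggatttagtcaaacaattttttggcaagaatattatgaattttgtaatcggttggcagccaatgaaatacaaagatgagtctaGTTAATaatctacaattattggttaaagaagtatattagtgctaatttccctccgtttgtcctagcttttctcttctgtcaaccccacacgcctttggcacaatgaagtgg
In KLK3 the AGAACA match starts 170 bases before the gene's start, in UGT2B15 172 bases before it, and in ALB the GTTAAT match starts 61 bases before it. Neither motif was found in the windows of KLK2, KLK11, ACP3 and SPINK1. Both strands were searched, and these motifs do not overlap each other. Of the 27305 promoters in the RefSeq table, 14.9% hold AGAACA and 6.89% hold GTTAAT. Of the 9563 measured genes with a promoter in the table, the shares were 10.3% and 4.53%. Among genes more than 2-fold higher in LnCaP, AGAACA was present in 9.78%, and among those more than 2-fold higher in 22RV1 in 8.42%. GTTAAT was present in 5.04% and 4.21%, respectively. A match is a description of the letters in this window and not a site of binding.

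Throughout, a difference is the mean of the 3 LnCaP arrays minus the mean of the 3 22RV1 arrays on the log2 scale, so that a negative value is higher in 22RV1, and it is given ± the standard error of limma's moderated fit. A value printed with ± is always such a log2 difference, a value said of a probe set is one too, and values given by array or as means of a line are log2 expression levels. A gene was called at a Benjamini-Hochberg adjusted p under 0.05 over all 11963 genes, and "higher" is used only of called genes. Of all genes, 5719 were called (47.8%), with 3042 higher in LnCaP (25.4%) and 2677 higher in 22RV1 (22.4%). Counts within a gene list are to be read against these shares, and a list near or below them was called no more often than genes at large. Genes that were called and also differed by more than 2-fold numbered 1707 (14.3%), of which 815 were higher in LnCaP (6.81%) and 892 in 22RV1 (7.46%). At more than 4-fold there were 226 higher in LnCaP and 332 in 22RV1, and at more than 16-fold 33 and 79. The median gene differed by 0.05, the middle 50% of genes lay between -0.24 and 0.29, and the median standard error was 0.11. Arrays of a line correlated at r of 0.991 to 0.997 over genes and arrays of different lines at 0.918 to 0.923. The arrays numbered 3 carried the largest shares of the residual sum of squares, 25.8% for 22RV1 and 21.1% for LnCaP, and genes that rest on them are marked below.

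The nicotine-treated arrays share no array with the untreated ones, and their line difference mostly had the same direction, though not always the same size. Fitted alone, they called 5769 genes (48.2%), of which 1841 were past 2-fold (15.4%). Of the 1707 genes past 2-fold in untreated cells, 1699 were called in the same direction in treated cells, which is 99.5% of them, and 1523 were again past 2-fold. Of all 5719 called genes, 4914 were called in the same direction (85.9%), 54 had the opposite sign, and 1 was called in both with opposite signs. That gene was CYB5R2, a cytochrome b5 reductase, at -0.37 ± 0.13 untreated and 0.28 ± 0.08 treated. NAP1L3, a nucleosome assembly protein, was the only gene past 2-fold whose sign turned, from -1.17 ± 0.25 to 0.13 ± 0.26. Over genes the differences correlated at r = 0.975, given as a description, since genes are not independent replicates and both sets come from the same lines and array type. The difference between the contrasts was called by limma for 0 genes, with 0.205 as the lowest adjusted p. An unadjusted p under 0.05 for it was found for 749 of the 11963 genes, a limit that a share of 0.05 passes with no difference at all. With 3 arrays per group, 0 called genes does not show that the contrasts are equal. Across all genes, 6657 had untreated arrays that did not overlap between the lines (55.6%), and this held for 1704 of the 1707 genes past 2-fold.

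**Figure D1:**
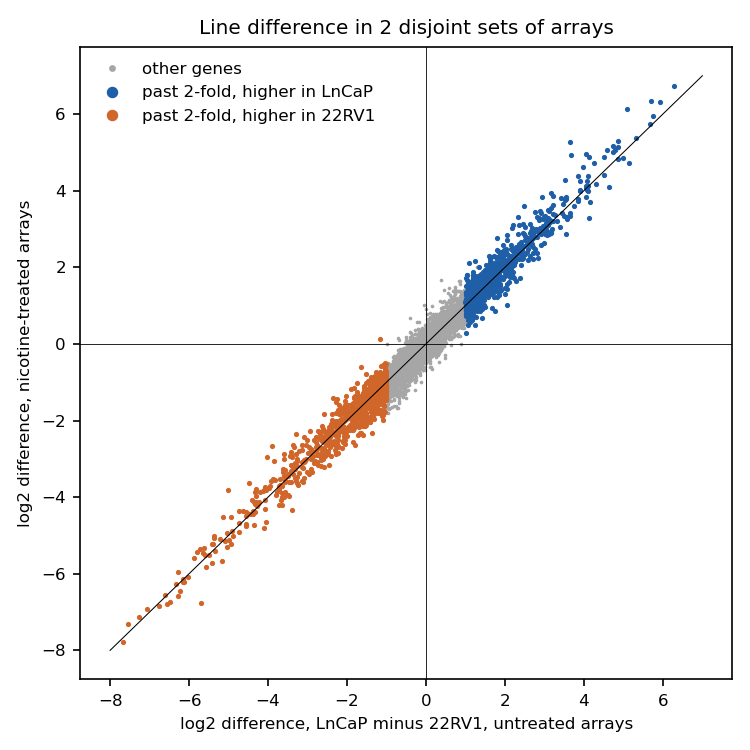
Each point is 1 of 11963 genes, with the log2 difference LnCaP minus 22RV1 in untreated arrays on the horizontal axis and in nicotine-treated arrays on the vertical axis. Blue and orange points are genes past 2-fold in untreated cells, and the thin diagonal marks equal values. The points follow the diagonal (r = 0.975), and 1 coloured gene, NAP1L3, lies on the other side of 0 in treated cells.

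The genes with the largest differences were of many kinds and included secreted and surface proteins, a junction protein and enzymes. SPINK1, a secreted trypsin inhibitor, was at 4.63, 4.19 and 4.15 in LnCaP and 11.09, 12.02 and 12.85 in 22RV1. Every 22RV1 array was far above every LnCaP array, and the difference was -7.66 ± 0.47 (adjusted p = 7.28e-08). GJA1, the gap junction protein connexin 43, had values of 3.15, 3.34 and 3.34 in LnCaP against 10.80, 10.54 and 11.12 in 22RV1. The lines again did not overlap, at -7.54 ± 0.15. ALB, serum albumin, read 3.92, 4.10 and 3.97 on the LnCaP arrays and 10.82, 10.61 and 12.38 on the 22RV1 arrays, a difference of -7.27 ± 0.55 in which the third 22RV1 array was the highest. PEG10, a retrotransposon-derived imprinted gene, was at 4.15, 4.60 and 4.54 in LnCaP and 11.69, 11.46 and 11.33 in 22RV1, with -7.06 ± 0.20. TSPAN8, a tetraspanin of epithelial membranes, differed by -6.76 ± 0.44, with the third LnCaP array at 6.28 against 4.46 and 4.78 on the others. LGALS1, the lectin galectin-1, differed by -6.61 ± 0.21, GPM6A, a neuronal membrane glycoprotein, by -6.55 ± 0.14, and BEX1, a small signalling adaptor of neural cells, by -6.48 ± 0.14. The rest of the 15 largest were AKR1C3, TIMP1, CTAG2, FABP5, RGS2, EPHA3 and CNN3, from -6.34 to -6.13. FABP5 carries fatty acids inside cells, RGS2 damps G protein signals, and CNN3 is an actin-binding calponin.

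On the LnCaP side the differences were smaller at the top. ACKR3, an atypical receptor that takes up the chemokine CXCL12, had values of 10.59, 10.44 and 9.21 in LnCaP against 3.73, 3.92 and 3.73 in 22RV1. All LnCaP arrays were above all 22RV1 arrays, by 6.28 ± 0.32 (adjusted p = 1.35e-08). RAB25, a small GTPase of epithelial recycling endosomes, read 10.42, 10.73 and 10.41 on the LnCaP arrays and 4.55, 4.43 and 4.84 on the 22RV1 arrays, with 5.92 ± 0.12. UGT2B17, which glucuronidates androgens, was at 9.58, 10.40 and 8.34 in LnCaP and 3.57, 3.79 and 3.74 in 22RV1. The LnCaP arrays spanned 2 log2 units without reaching 22RV1, and the difference was 5.74 ± 0.46. SLC30A4, a zinc exporter, differed by 5.71 ± 0.18, PEG3, an imprinted zinc finger gene, by 5.67 ± 0.22, and ALDH1A3, which makes retinoic acid, by 5.31 ± 0.11. ABCC4, an efflux pump, followed at 5.14 ± 0.20, GASK1B, a Golgi-associated kinase relative, at 5.10 ± 0.21, and NLRP2, an innate immune sensor family member, at 4.995 ± 0.15. DNAJC15, a mitochondrial co-chaperone, the histone gene H4C8, PRKD1, a protein kinase D, PDE10A, a cyclic nucleotide phosphodiesterase, MME, the surface peptidase neprilysin, and SLC4A4, a bicarbonate transporter, lay between 4.87 and 4.72. All 30 of these genes were called in the same direction in treated cells. H4C8 belongs to a family of near-identical histone genes, whose signals a probe set may share.

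**Figure D2:**
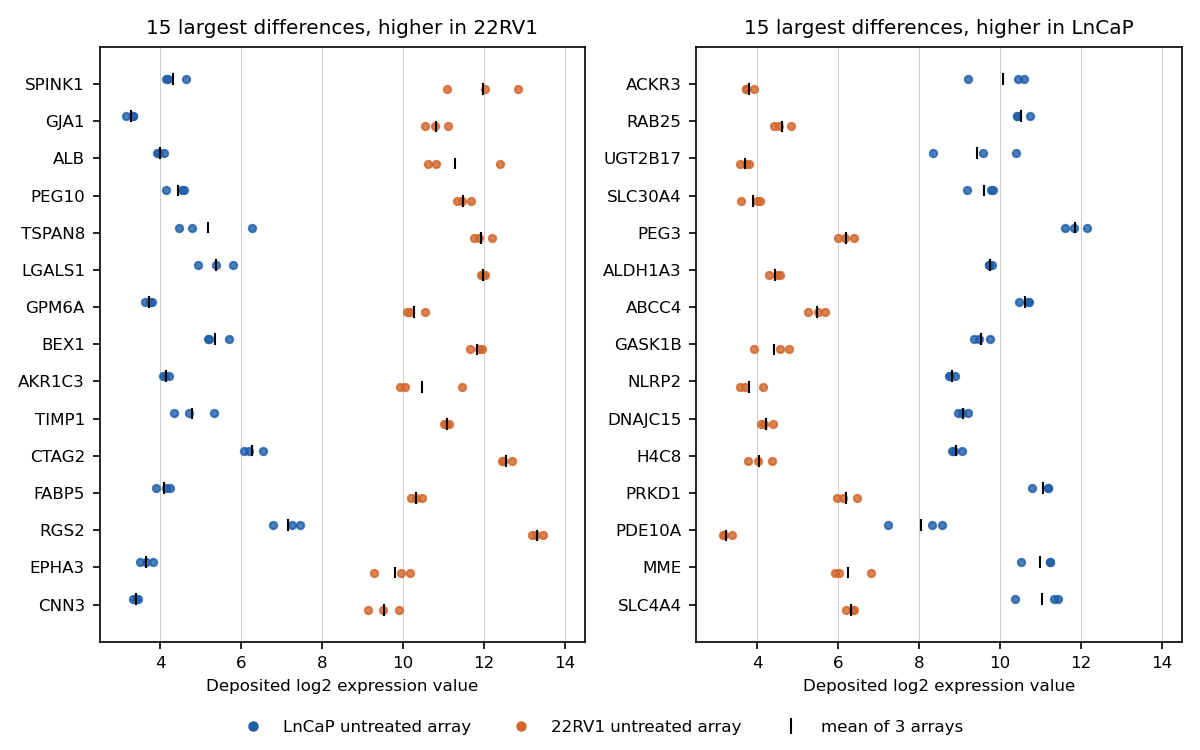
Deposited log2 expression values of the 15 genes with the largest differences in each direction, 1 dot per untreated array (blue LnCaP, orange 22RV1) and a black bar for the mean of 3 arrays. No LnCaP dot reaches a 22RV1 dot in any of the 30 genes, and the 22RV1 dots of ALB and AKR1C3 are spread by 1 array.

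The androgen receptor gene itself is not analysed here, and of 18 measured genes for its chromatin partners and cofactors 6 were higher in LnCaP and 6 in 22RV1, with a median difference of 0.13. The LnCaP count was 3 without 22RV1 replicate 3. FOXA1, a pioneer factor, had values of 11.03, 11.02 and 10.68 in LnCaP against 11.19, 11.15 and 10.92 in 22RV1, and the lines overlapped, at -0.18 ± 0.12 (adjusted p = 0.235). HOXB13, a homeobox partner of the receptor, read 11.33, 11.57 and 11.50 on the LnCaP arrays and 11.51, 11.08 and 10.97 on the 22RV1 arrays, at 0.28 ± 0.14 (adjusted p = 0.123). It was not called in this fit, but it was without 22RV1 replicate 1 (0.44, adjusted p = 0.0105), with arrays centred on their medians (0.34, adjusted p = 0.0478) and with array weights (0.31, adjusted p = 0.0496). GATA3, a factor of luminal differentiation, was at 4.45, 4.37 and 4.58 in LnCaP and 7.50, 8.72 and 9.46 in 22RV1. The 22RV1 arrays were spread but all above LnCaP, at -4.09 ± 0.54. FKBP5, a co-chaperone of steroid receptors and itself a common androgen target, had values of 8.08, 7.47 and 8.11 in LnCaP against 10.53, 10.72 and 10.17 in 22RV1, higher in 22RV1 at -2.59 ± 0.26. NCOA1, the steroid receptor coactivator SRC-1, was higher in LnCaP by 1.90 ± 0.08, and SPDEF, an ETS factor of secretory epithelium, higher in 22RV1 at -1.01 ± 0.16. SPDEF's lowest-mean probe set gave 0.031.

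Prostate secretory genes did not stand on 1 side. Among 18 measured, 6 were higher in LnCaP and 5 in 22RV1, their median was 0.03, and 9 were past 2-fold. KLK3 read 12.99, 13.05 and 13.12 on the LnCaP arrays and 9.31, 9.34 and 8.24 on the 22RV1 arrays. The LnCaP arrays lay close together and above all 22RV1 arrays, of which the third was lowest, and the difference was 4.09 ± 0.34 (adjusted p = 1.02e-06). ACP3, prostatic acid phosphatase, was at 9.48, 10.13 and 10.83 in LnCaP and 6.40, 5.97 and 6.16 in 22RV1, higher in LnCaP by 3.97 ± 0.33. KLK2, the protease that activates the KLK3 product, had values of 10.74, 10.70 and 10.03 in LnCaP against 9.87, 9.65 and 8.70 in 22RV1. The lines did not overlap, but the call at 1.09 ± 0.36 (adjusted p = 0.0253) was lost without 22RV1 replicate 3 (adjusted p = 0.106), LnCaP replicate 1 (0.0846) or LnCaP replicate 2 (0.0801), and also with the mean over its probe sets (0.0514). In the opposite direction, KLK11, another kallikrein, read 5.54, 5.31 and 5.06 on the LnCaP arrays and 10.17, 9.03 and 8.90 on the 22RV1 arrays, higher in 22RV1 at -4.07 ± 0.44. NPY, the secreted neuropeptide Y, was higher in 22RV1 at -2.33 ± 0.22 and AZGP1, a zinc-binding glycoprotein of prostate fluid, at -1.61 ± 0.15. TFF3, a trefoil peptide, was higher in LnCaP by 1.81 ± 0.20 and AGR2, a disulfide isomerase of secretory cells, by 1.22 ± 0.36.

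Of 20 surface and transport genes of prostate epithelium, 7 were higher in LnCaP and 4 in 22RV1. TMPRSS2, an androgen-driven surface protease, was at 10.84, 10.20 and 10.67 in LnCaP and 9.86, 9.29 and 8.88 in 22RV1, at 1.23 ± 0.29 (adjusted p = 0.00369). FOLH1, prostate-specific membrane antigen, had values of 9.58, 9.37 and 9.68 in LnCaP against 8.67, 8.40 and 8.06 in 22RV1, at 1.17 ± 0.21. Both were higher in LnCaP with no overlap. HPN, the protease hepsin, was higher in LnCaP by 2.15 ± 0.18 and TRPM4, a cation channel, by 1.76 ± 0.25. CD44, a hyaluronan receptor, was higher in 22RV1 at -3.28 ± 0.25, CD24, a small surface glycoprotein, at -2.09 ± 0.46, and ALCAM, an adhesion molecule, at -1.32 ± 0.14.

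Androgen targets outside the secretory genes also divided. Of 25 genes listed as induced, 11 were higher in LnCaP and 6 in 22RV1, with a median of 0.51. HPGD, which breaks down prostaglandins, read 5.34, 5.85 and 6.42 on the LnCaP arrays and 11.73, 11.72 and 11.26 on the 22RV1 arrays, higher in 22RV1 at -5.70 ± 0.22. PMEPA1, a feedback inhibitor of TGF-beta signalling, differed by -2.68 ± 0.15 and ELL2, an elongation factor, by -2.50 ± 0.25. On the LnCaP side, besides ABCC4, stood ADAMTS1, a secreted metalloprotease, at 3.86 ± 0.22, LRIG1, a brake on growth factor receptors, at 3.55 ± 0.25, and IQGAP2, a scaffold protein, at 2.56 ± 0.12. Of 15 genes listed as lowered by androgen, 9 were higher in LnCaP and 2 in 22RV1, with a median of 1.03 against 0.05 for all genes and 1.53 in treated cells. They included UGT2B17 and PEG3 above, DDC, aromatic amino acid decarboxylase, at 3.68 ± 0.42, BCHE, butyrylcholinesterase, at 3.52 ± 0.48, and CAMK2N1, an inhibitor of CaM kinase, at 3.17 ± 0.18. DDC's lowest-mean probe set gave -0.88 (adjusted p = 0.0146), the opposite direction. The exceptions were DKK1, a secreted Wnt antagonist, which was at 4.17, 4.03 and 3.83 in LnCaP and 10.03, 9.18 and 7.87 in 22RV1, and CCND1, cyclin D1, at -2.66 ± 0.10. DKK1 was higher in 22RV1 on every array, at -5.02 ± 0.59, with the third array lowest.

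Enzymes that make and remove androgens differed in both directions. Of 28 measured, 8 were higher in LnCaP and 8 in 22RV1, with a median of 0.06, and the LnCaP count was 5 without 22RV1 replicate 1. AKR1C3, which reduces androstenedione to testosterone, had values of 4.13, 4.07 and 4.22 in LnCaP against 10.06, 9.93 and 11.45 in 22RV1. AKR1C2, which inactivates dihydrotestosterone, read 5.50, 5.80 and 5.05 on the LnCaP arrays and 8.24, 8.21 and 10.17 on the 22RV1 arrays. AKR1C1, a related steroid reductase, was at 6.52, 6.58 and 6.69 in LnCaP and 8.70, 8.85 and 10.89 in 22RV1. In all 3 the third 22RV1 array was the highest, and no array overlapped between the lines. The differences were -6.34 ± 0.49, -3.42 ± 0.64 and -2.88 ± 0.64, and without 22RV1 replicate 3 they were -5.85, -2.78 and -2.18. AKR1C1's lowest-mean probe set gave -0.018 and was not called. These genes are near-identical in sequence, and a probe set may read more than 1 of them. HSD17B11, a 17-beta-hydroxysteroid dehydrogenase, was higher in 22RV1 at -3.72 ± 0.25. Of the conjugating UGT2B enzymes, UGT2B17 is given above. UGT2B15 had values of 10.78, 11.56 and 9.71 in LnCaP against 7.44, 7.86 and 9.69 in 22RV1. The third arrays of the lines nearly met, at 9.71 and 9.69, and the call at 2.36 ± 0.81 (adjusted p = 0.03) was lost without 22RV1 replicate 1 (adjusted p = 0.115), 22RV1 replicate 2 (0.0921), LnCaP replicate 1 (0.0721) or LnCaP replicate 2 (0.112). UGT2B28 was higher in LnCaP by 1.87 ± 0.54, whereas UGT2B4, the bile acid conjugating member, was higher in 22RV1 at -1.26 ± 0.24. UGT2B genes too are close in sequence and their probe sets may share signal. STS, which frees steroids from their sulfates, was higher in LnCaP by 1.37 ± 0.15.

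**Figure D3:**
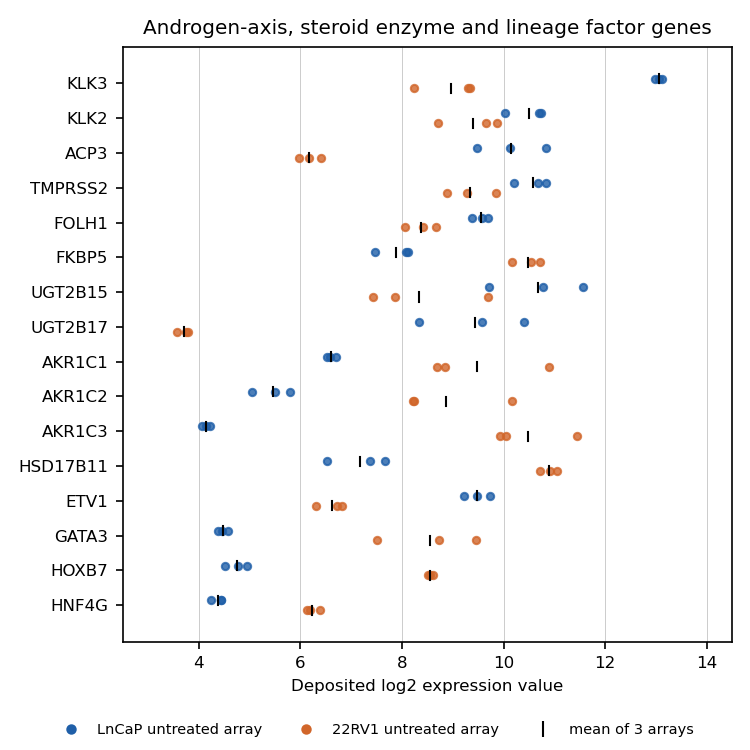
Deposited log2 expression values of 16 genes of the androgen axis, of steroid metabolism and of lineage control, 1 dot per untreated array and a black bar for the mean of 3 arrays. KLK3 dots of LnCaP lie at 12.99 to 13.12 while those of 22RV1 lie at 8.24 to 9.34, UGT2B15 dots of the lines nearly meet, and the AKR1C genes each have 1 high 22RV1 array.

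Of 17 luminal epithelial markers, 3 were higher in LnCaP and 4 in 22RV1 (41.2% called, against 47.8% of all genes), and 5 of these were past 2-fold. The keratins KRT8 and KRT18 and the adhesion molecule EPCAM, which are typical of luminal cells and lie outside the naming rule, so their choice followed their values, were not called, with means of 10.40, 12.58 and 10.11 in LnCaP and 10.66, 12.71 and 10.07 in 22RV1. KRT19, a simple-epithelium keratin, read 4.92, 5.37 and 5.51 on the LnCaP arrays and 10.22, 10.39 and 9.98 on the 22RV1 arrays, higher in 22RV1 at -4.93 ± 0.17. KRT7, a keratin of ducts, was higher in 22RV1 at -1.67 ± 0.38, but its lowest-mean probe set gave 0.020. OCLN and TJP1, tight junction proteins, were higher in LnCaP by 2.48 ± 0.13 and 1.49 ± 0.11. CDH1, E-cadherin, was at 0.39 ± 0.13 (adjusted p = 0.0238), a call lost without 22RV1 replicate 3 (adjusted p = 0.0887), LnCaP replicate 1 (0.091) or LnCaP replicate 2 (0.0896). Of 12 basal markers, 5 were higher in LnCaP and 1 in 22RV1, and only ITGA6, an integrin of hemidesmosomes, at 2.40 ± 0.19, and DST, which links keratin to hemidesmosomes, at -2.08 ± 0.12, were past 2-fold. DST gave -0.70 with the mean over its probe sets, and -0.03 with the lowest-mean probe set, where it was not called. The basal keratin KRT5 had means of 4.82 and 4.76, near the low end of these arrays, where expression cannot be told from background since no detection calls are used here.

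The ETS factors, a family often rearranged in prostate cancer, had 4 of 23 members higher in LnCaP and 6 in 22RV1, and the LnCaP count was 2 without 22RV1 replicate 1 or LnCaP replicate 1. ETV1 was at 9.48, 9.22 and 9.74 in LnCaP and 6.73, 6.31 and 6.82 in 22RV1, higher in LnCaP by 2.86 ± 0.20 (adjusted p = 2.25e-07) with no overlap. EHF, an epithelial ETS factor, was higher in LnCaP by 1.57 ± 0.15. The family members ELF4 and ETS2 were higher in 22RV1, with differences of -1.05 and -1.03, as was SPDEF above. In this list 43.5% were called, against 47.8% of all genes, with 2 past 2-fold in LnCaP and 3 in 22RV1. The total of 5 past 2-fold was 3 without 22RV1 replicate 2 or LnCaP replicate 3. Of 24 HOX genes, which set positional identity, 2 were higher in LnCaP and 8 in 22RV1 (41.7% called, against 47.8% of all genes). HOXB7 had values of 4.96, 4.77 and 4.51 in LnCaP against 8.55, 8.51 and 8.62 in 22RV1, higher in 22RV1 at -3.81 ± 0.11, and HOXC10 differed by -2.69 ± 0.16. HOXB5 and HOXB6, neighbours of HOXB7, differed by -1.29 ± 0.11 and -1.01 ± 0.18.

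Neuroendocrine genes that were called were higher in 22RV1, apart from DDC. Of 23 neuroendocrine and neural markers, 8 were higher in 22RV1 (background 22.4%) and 1, DDC, in LnCaP (2 without 22RV1 replicate 2), and the list's median was -0.12. The other 14 were not called, and the called share of 39.1% was below the 47.8% of all genes. Called members named next were taken for their large differences and do not stand for the list. SCG3, a secretogranin of hormone granules, read 3.28, 3.27 and 3.48 on the LnCaP arrays and 7.81, 7.50 and 7.60 on the 22RV1 arrays. CHGB, chromogranin B, was at 4.62, 4.67 and 4.62 in LnCaP and 8.81, 8.56 and 7.17 in 22RV1. In both genes every 22RV1 array was above every LnCaP array, and the differences were -4.29 ± 0.13 and -3.55 ± 0.39. ENO2, neuron-specific enolase, was at -2.01 ± 0.35, SNAP25, a vesicle fusion protein, at -1.85 ± 0.16, and SYP, the vesicle protein synaptophysin, at -1.43 ± 0.10. CHGA, chromogranin A, had means of 4.97 and 5.37 and was not called. The gut and liver list gave 9 of 34 members higher in 22RV1 and 2 in LnCaP, with a median of 0.09, so most members were not called. Its called share of 32.4% was below the 47.8% of all genes, while 26.5% were past 2-fold against 14.3%. The members named next are the called ones with large differences and do not stand for the list. VIL1, the brush border protein villin, had values of 4.05, 4.57 and 4.80 in LnCaP against 8.09, 8.12 and 8.53 in 22RV1, higher in 22RV1 at -3.77 ± 0.27. APOC1, a lipoprotein component, followed at -2.78 ± 0.21, and HNF4G, a nuclear receptor of gut and liver, read 4.44, 4.24 and 4.43 on the LnCaP arrays and 6.38, 6.13 and 6.19 on the 22RV1 arrays, at -1.87 ± 0.17. MUC13, a membrane mucin, differed by -1.37 ± 0.34 and LGALS4, an intestinal galectin, by -1.13 ± 0.16. TFF1 and TFF3, trefoil peptides, were the members higher in LnCaP, TFF1 by 1.46 ± 0.29. ALB's lowest-mean probe set gave -0.45 and was not called.

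Markers of other cell types were called in part. The deposited values of all genes ran from 2.75 to 14.18. Of 17 leukocyte markers 1 was called, LYZ, lysozyme, at 0.19 ± 0.07, and none was past 2-fold. The call rested on single arrays, with 0 leukocyte markers called without any 1 of the 22RV1 arrays or LnCaP replicates 1 or 2. PTPRC, the common leukocyte antigen, chosen with its values known, was not called and had means of 4.15 in LnCaP and 4.31 in 22RV1. Of 10 endothelial markers, 2 were higher in LnCaP and 0 in 22RV1 (20% called, against 47.8% of all genes), and 1 of them was past 2-fold. This was VWF, von Willebrand factor, at 7.11, 7.46 and 7.42 in LnCaP and 3.95, 3.98 and 4.39 in 22RV1, higher in LnCaP by 3.23 ± 0.15. The endothelial markers PECAM1 and CDH5, also chosen with their values known, were not called. Their means were 4.68 and 3.97 in LnCaP and 4.63 and 3.85 in 22RV1. Of 43 mesenchymal and matrix genes, 11 were higher in LnCaP and 7 in 22RV1 (41.9% called, against 47.8% of all genes). TIMP1, a metalloprotease inhibitor, had values of 5.33, 4.70 and 4.33 in LnCaP against 11.07, 11.15 and 11.02 in 22RV1, higher in 22RV1 at -6.29 ± 0.20. Its relative TIMP2 was higher in LnCaP by 2.36 ± 0.18. LUM, the matrix proteoglycan lumican, differed by -3.62 ± 0.33, and COL6A1, a collagen VI chain, by 3.10 ± 0.29 the other way. COL6A1 gave 0.92 with the mean over its probe sets, and 0.13 with the lowest-mean probe set, where it was not called. VIM, vimentin, read 8.19, 8.53 and 6.97 on the LnCaP arrays and 10.17, 9.92 and 9.50 on the 22RV1 arrays, higher in 22RV1 at -1.97 ± 0.38 with the third LnCaP array lowest. TWIST1, a mesenchymal transcription factor, was higher in 22RV1 at -1.40 ± 0.12, and FN1, fibronectin, higher in LnCaP by 1.40 ± 0.35. ACTA2, smooth muscle actin, was at 2.06 ± 0.47 with LnCaP arrays from 7.68 to 10.06, and its lowest-mean probe set gave 0.12 and was not called.

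Cell contacts differed by molecule. Of 33 adhesion and junction genes, 9 were higher in LnCaP and 10 in 22RV1, with a median of -0.02. Besides GJA1, PCDH7, a protocadherin, was higher in 22RV1 at -4.02 ± 0.21, and CDH3, P-cadherin, was at 7.05, 7.60 and 6.11 in LnCaP and 10.24, 10.001 and 9.61 in 22RV1, at -3.03 ± 0.38. DSC2, a desmosomal cadherin, had values of 10.02, 10.28 and 10.29 in LnCaP against 6.46, 6.03 and 5.78 in 22RV1, higher in LnCaP by 4.10 ± 0.15, and CLDN8, a tight junction claudin, by 3.75 ± 0.20. DSG2, the partner desmoglein, was higher in LnCaP by 1.18 ± 0.10. Of 18 integrins 4 were higher in LnCaP and 5 in 22RV1, the latter 3 without 22RV1 replicate 2 or LnCaP replicate 1, and ITGB5 was the member past 2-fold in 22RV1 at -1.49 ± 0.18. S100 proteins, small calcium binders, held large differences. S100A10 read 6.65, 6.07 and 6.19 on the LnCaP arrays and 11.13, 11.39 and 12.68 on the 22RV1 arrays, at -5.43 ± 0.40, and S100A6 was at 4.70, 4.43 and 4.85 in LnCaP and 9.89, 9.97 and 8.77 in 22RV1, at -4.88 ± 0.41. S100P differed by -3.38 ± 0.66, with LnCaP replicate 3 nearest to 22RV1. Across 25 annexin and S100 genes, 5 were higher in LnCaP and 6 in 22RV1 (44% called, against 47.8% of all genes).

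**Figure D4:**
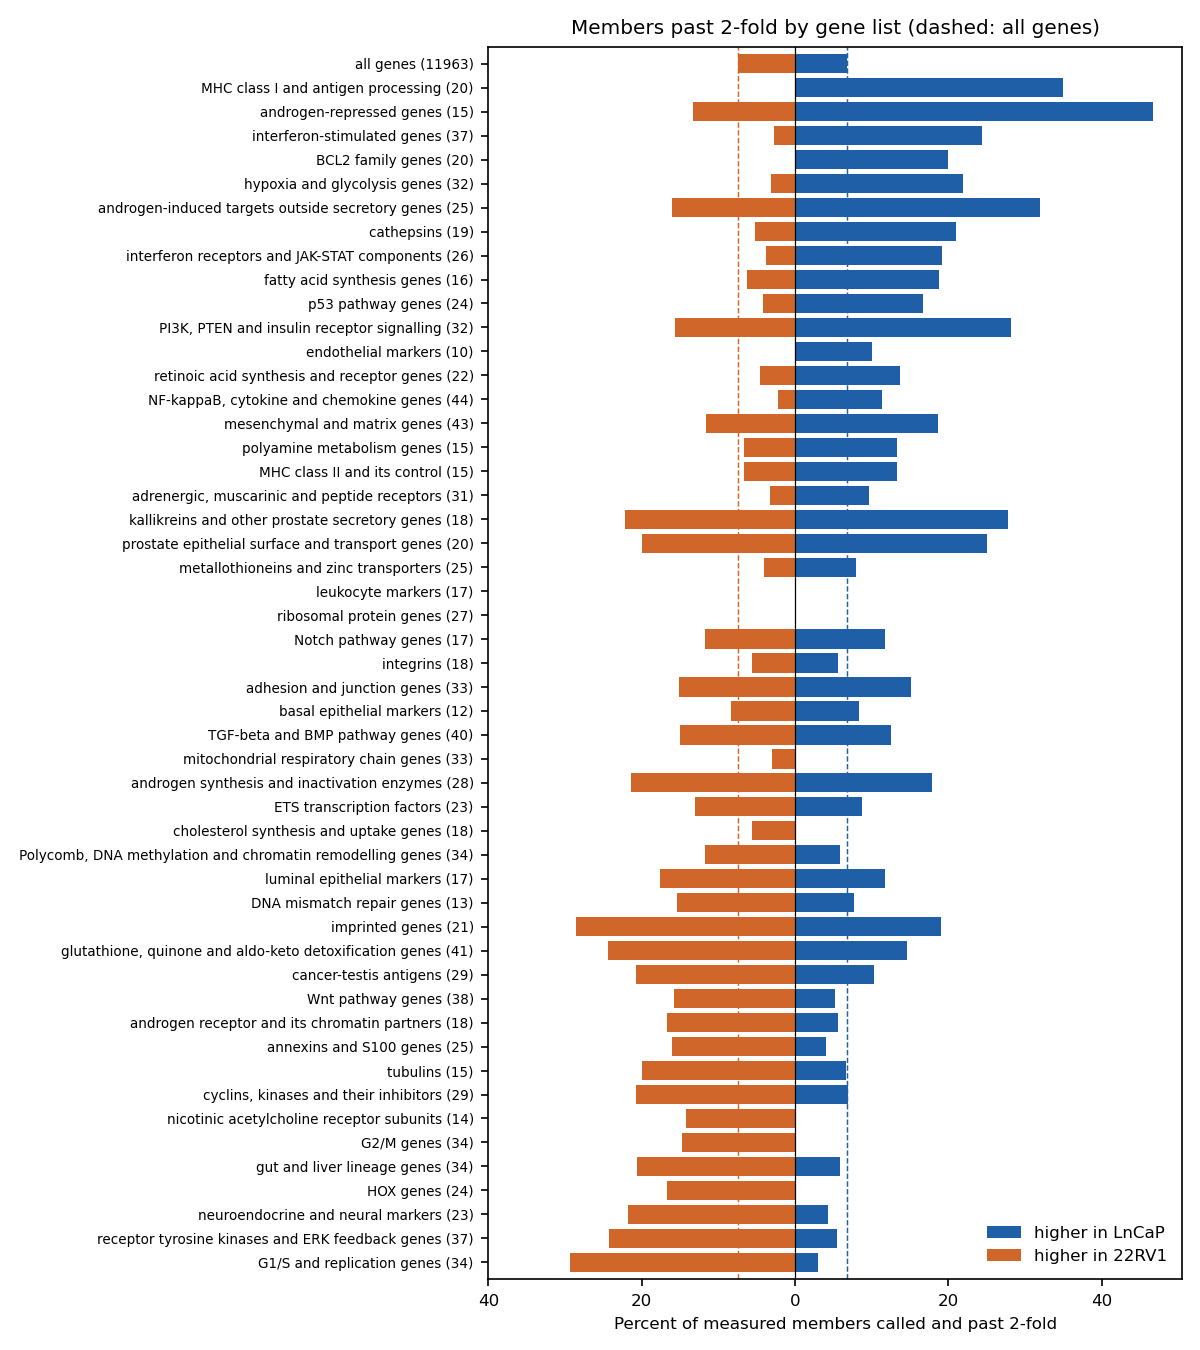
For each gene list (number of measured members in brackets), bars show the percent of members called and past 2-fold, to the right for members higher in LnCaP and to the left for members higher in 22RV1. The top bar and the dashed lines give all 11963 genes, 6.81% and 7.46%. G1/S and replication genes reach farthest beyond the dashed line on the 22RV1 side with little on the other, and MHC class I genes lie on the LnCaP side alone.

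Growth factor signalling genes differed in both directions. Of 37 receptor tyrosine kinases and feedback genes of the ERK pathway, 15 were higher in 22RV1 and 5 in LnCaP, with a median of -0.24 in untreated and in treated cells. EPHA3, an ephrin receptor, had values of 3.65, 3.51 and 3.82 in LnCaP against 9.95, 10.17 and 9.28 in 22RV1, at -6.14 ± 0.23, although its lowest-mean probe set gave 0.0068. FGFR3, a fibroblast growth factor receptor, read 4.81, 5.61 and 5.98 on the LnCaP arrays and 9.74, 9.41 and 9.56 on the 22RV1 arrays, at -4.10 ± 0.26. ERBB4 was higher in 22RV1 at -3.13 ± 0.25, and its relative ERBB2 higher in LnCaP by 1.16 ± 0.29. The ERK feedback inhibitors SPRY2, SPRY4, DUSP6 and SPRED2 were higher in 22RV1, at -2.91 ± 0.10, -1.75 ± 0.18, -1.29 ± 0.19 and -1.26 ± 0.15. In the PI3K and insulin receptor list, 11 of 32 genes were higher in LnCaP and 8 in 22RV1. The insulin receptor substrates were higher in 22RV1. IRS2 was at 6.44, 6.62 and 7.09 in LnCaP and 11.59, 11.48 and 10.75 in 22RV1, at -4.56 ± 0.22, and IRS1 had values of 4.95, 5.20 and 4.66 in LnCaP against 8.69, 8.57 and 8.31 in 22RV1, at -3.59 ± 0.14. The kinase subunits were higher in LnCaP, with PIK3CD, a catalytic subunit, which read 9.68, 9.66 and 9.74 on the LnCaP arrays and 5.76, 5.50 and 5.51 on the 22RV1 arrays, at 4.10 ± 0.17, and the regulatory subunits PIK3R3 and PIK3R1 at 2.15 ± 0.15 and 1.99 ± 0.15. GRB10, an adaptor that restrains the insulin receptor, was higher in LnCaP by 3.10 ± 0.21 and DDIT4, an inhibitor of mTORC1, by 2.14 ± 0.25.

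In the TGF-beta and BMP list, 10 of 40 genes were higher in LnCaP and 13 in 22RV1, and the ID genes, which are BMP targets that block basic helix-loop-helix factors, stood on 1 side. ID1 was at 4.74, 5.27 and 5.24 in LnCaP and 10.83, 10.42 and 10.76 in 22RV1. ID3 had values of 5.66, 5.61 and 5.29 in LnCaP against 11.02, 10.80 and 10.96 in 22RV1. ID2 and ID4 were likewise higher in 22RV1 on every array, and the differences were -5.58 ± 0.18 for ID1, -5.41 ± 0.16 for ID3, -3.71 ± 0.31 for ID2 and -3.001 ± 0.18 for ID4. The ligand BMP2 read 4.06, 4.28 and 4.38 on the LnCaP arrays and 8.51, 8.48 and 8.90 on the 22RV1 arrays, at -4.39 ± 0.22. The BMP receptors BMPR2 and BMPR1B were higher in LnCaP by 1.35 ± 0.13 and 1.11 ± 0.34. GDF15, a stress-induced member of the ligand family, was at 12.79, 12.66 and 12.97 in LnCaP and 8.63, 9.13 and 8.51 in 22RV1, higher in LnCaP by 4.06 ± 0.21. In the Wnt list, 14 of 38 genes were higher in 22RV1 and 5 in LnCaP, with a median of -0.03. Besides DKK1, LGR5, an R-spondin receptor, was higher in 22RV1 at -3.43 ± 0.54, LEF1, a nuclear effector of the pathway, at -3.14 ± 0.20, and FZD5, a Wnt receptor, at -2.11 ± 0.23. TLE1, a corepressor, and WNT5A, a ligand, were higher in LnCaP by 2.998 ± 0.20 and 1.98 ± 0.23. In the Notch list, 4 of 17 were higher in each line (47.1% called, against 47.8% of all genes). The ligand JAG1 had values of 7.70, 9.002 and 9.33 in LnCaP against 4.48, 4.52 and 4.24 in 22RV1, higher in LnCaP by 4.26 ± 0.37, whereas the targets HES1 and HEY1 were higher in 22RV1 at -3.73 ± 0.14 and -1.07 ± 0.14. The lowest-mean probe sets of JAG1 and HES1 gave 0.34 and -0.18 and were not called.

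Replication genes were the list with the most members on the 22RV1 side. Of 34 G1/S and replication genes, 24 were higher in 22RV1 against a background of 22.4%, and 1, CCNE1 (cyclin E1, at 1.19 ± 0.13), in LnCaP (2 without 22RV1 replicate 3). The median was -0.73 in untreated cells and -1.26 in treated cells, against 0.05 and 0.06 for all genes. CDT1, which loads the replicative helicase, read 7.43, 6.86 and 7.48 on the LnCaP arrays and 9.39, 9.45 and 9.58 on the 22RV1 arrays, at -2.22 ± 0.20 (adjusted p = 1.67e-06). MCM7, a helicase subunit, was at 10.06, 9.46 and 10.02 in LnCaP and 11.36, 11.29 and 11.55 in 22RV1, at -1.55 ± 0.16. LIG1, the ligase that joins Okazaki fragments, had values of 7.45, 7.36 and 7.37 in LnCaP against 9.40, 9.27 and 9.68 in 22RV1, at -2.06 ± 0.12. In these genes no array overlapped between the lines. UNG, uracil glycosylase, POLE2, a polymerase epsilon subunit, and PRIM1, the primase, differed by -1.74 ± 0.15, -1.64 ± 0.27 and -1.36 ± 0.20. Of 34 G2/M genes, 20 were higher in 22RV1 and 1 in LnCaP (0 without 22RV1 replicates 1 or 2 or LnCaP replicates 2 or 3). The list's median was -0.48 in untreated cells and -0.84 in treated cells. KIF11, a spindle motor, was at -1.61 ± 0.11, TOP2A, topoisomerase II alpha, at -1.06 ± 0.10, and MKI67, the proliferation marker Ki-67, read 8.25, 8.36 and 7.98 on the LnCaP arrays and 8.94, 8.95 and 8.94 on the 22RV1 arrays, at -0.75 ± 0.11. Growth rate and cell cycle phase were not measured, and their part in these differences was not tested.

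Regulators of the cycle fell on both sides. Of 29 cyclins, kinases and inhibitors, 11 were higher in 22RV1 and 4 in LnCaP. CCND1 was at 9.55, 9.66 and 9.27 in LnCaP and 12.21, 12.19 and 12.06 in 22RV1, and CDK2 was higher in 22RV1 at -1.60 ± 0.13, although CDK2's lowest-mean probe set gave 0.016. The inhibitors CDKN1C and CDKN1B were higher in 22RV1 at -1.69 ± 0.31 and -1.16 ± 0.12, and CDKN1C's lowest-mean probe set gave 0.15. CDKN1A, the inhibitor p21, had values of 9.89, 10.34 and 10.50 in LnCaP against 8.92, 8.85 and 8.56 in 22RV1, higher in LnCaP by 1.47 ± 0.18. CDKN1A is also a p53 target. Of 24 p53 pathway genes, 13 were higher in LnCaP and 6 in 22RV1, with a median of 0.39 and 0.25 in treated cells. SESN1, a stress-induced inhibitor of mTORC1, read 9.90, 10.46 and 10.25 on the LnCaP arrays and 7.04, 7.12 and 7.27 on the 22RV1 arrays, at 3.06 ± 0.15. TNFRSF10D, a decoy receptor for TRAIL, differed by 1.95 ± 0.11, ZMAT3, an RNA-binding p53 target, by 1.47 ± 0.19, and MDM4, a p53 inhibitor, by -1.18 ± 0.19 the other way. Of 13 mismatch repair genes, several of which also act in replication, 9 were higher in 22RV1 and 2 in LnCaP (84.6% called). Their median was -0.59 in untreated cells and -0.97 in treated cells. The lowest untreated value of the list, -2.06, is the one given for LIG1 among the replication genes, so these lists are not separate results. Past 2-fold were 2 members in 22RV1 and 1 in LnCaP, and the total of 3 was 5 without LnCaP replicate 1. MSH3, which recognises insertion and deletion loops, went against the list. It was at 7.61, 7.68 and 7.75 in LnCaP and 5.50, 5.40 and 5.46 in 22RV1, higher in LnCaP by 2.22 ± 0.09. Its lowest-mean probe set gave 0.11 and was not called. Of 20 BCL2 family genes, 10 were higher in LnCaP and 1 in 22RV1 (0 without LnCaP replicate 2), among them BNIP3, a mitophagy receptor, at 2.19 ± 0.11 and BID, a death agonist, at 2.18 ± 0.15.

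More antigen presentation genes were higher in LnCaP than in 22RV1. Of 20 MHC class I and processing genes, 11 were higher in LnCaP against a background of 25.4%, and 2 in 22RV1 (1 without 22RV1 replicate 3), with a median of 0.43 and 0.57 in treated cells. HLA-B had values of 10.97, 11.06 and 10.81 in LnCaP against 8.28, 8.21 and 8.63 in 22RV1, at 2.57 ± 0.17, and HLA-C read 11.69, 11.64 and 11.49 on the LnCaP arrays and 8.39, 8.67 and 9.27 on the 22RV1 arrays, at 2.83 ± 0.34. TAP2, a subunit of the peptide transporter, was at 1.58 ± 0.19, its lowest-mean probe set at 0.22 and not called. The shared light chain B2M was at 11.99, 12.04 and 12.17 in LnCaP and 11.67, 11.96 and 12.23 in 22RV1. Its arrays overlapped, and it was not called at 0.11 ± 0.19 (adjusted p = 0.666). HLA heavy chains are alike and vary between people, so probe sets may cross-react or fit the alleles of a line unequally. In the class II list, 5 of 15 were higher in LnCaP (3 without LnCaP replicate 1) and 2 in 22RV1. With all arrays 46.7% of class II members were called, against 47.8% of all genes. HLA-DMA, a peptide loading chain, had values of 8.47, 8.66 and 9.25 in LnCaP against 4.31, 4.35 and 3.83 in 22RV1, higher in LnCaP by 4.63 ± 0.20. HLA-DQB1 was at -2.24 ± 0.13, but its 7 probe sets ran from -3.54 to 1.12 and give no single direction.

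Interferon-stimulated genes had 21 of 37 members higher in LnCaP and 5 in 22RV1 (3 without 22RV1 replicates 1 or 2 or LnCaP replicates 1 or 3), with a median of 0.33. IFI6, a mitochondrial interferon-induced protein, read 7.69, 7.87 and 8.11 on the LnCaP arrays and 5.29, 5.54 and 5.07 on the 22RV1 arrays, at 2.59 ± 0.13, and LGALS3BP, a secreted galectin ligand, was at 2.59 ± 0.16. IFI44 was at 1.70 ± 0.17, with -0.019 in its lowest-mean probe set. PLSCR1, a phospholipid scramblase, was at 4.52, 4.10 and 4.66 in LnCaP and 7.87, 7.89 and 8.34 in 22RV1, higher in 22RV1 at -3.61 ± 0.18. Of 26 interferon receptor and JAK-STAT genes, 9 were higher in LnCaP and 3 in 22RV1 (5 without 22RV1 replicate 3). With all arrays 46.2% of this list were called, against 47.8% of all genes. The STAT factors differed most. STAT3, the effector of interleukin-6, had values of 10.14, 10.28 and 10.46 in LnCaP against 7.65, 7.60 and 7.37 in 22RV1, higher in LnCaP by 2.76 ± 0.12. STAT6, the effector of interleukin-4, read 5.88, 5.74 and 5.46 on the LnCaP arrays and 10.25, 10.01 and 9.78 on the 22RV1 arrays, higher in 22RV1 at -4.32 ± 0.15. JAK2 was higher in LnCaP by 1.13 ± 0.21. JAK1 was at 5.49, 5.24 and 5.29 in LnCaP and 6.08, 5.60 and 5.33 in 22RV1, and with overlapping arrays was not called at -0.33 ± 0.18 (adjusted p = 0.146). It was called without 22RV1 replicate 3, at -0.50 with an adjusted p of 0.0307. Of 44 NF-kappaB, cytokine and chemokine genes, 9 were higher in LnCaP and 5 in 22RV1 (31.8% called, against 47.8% of all genes). IL1RN, the interleukin-1 receptor antagonist, was higher in LnCaP by 2.94 ± 0.20 and IL17RB, a receptor for interleukin-25, in 22RV1 at -1.51 ± 0.20. IL32, at 1.08 ± 0.32, was not called without LnCaP replicate 2 (adjusted p = 0.0658).

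Metabolic genes differed by pathway. Of 32 hypoxia and glycolysis genes, 18 were higher in LnCaP and 7 in 22RV1, with a median of 0.50 and 0.32 in treated cells. PFKP, the platelet form of phosphofructokinase, had values of 10.38, 10.57 and 10.24 in LnCaP against 6.28, 6.34 and 6.10 in 22RV1, at 4.15 ± 0.17. PDK1, which blocks pyruvate entry into mitochondria, was at 1.46 ± 0.19 and ALDOC, an aldolase, at 1.35 ± 0.09. Of 33 respiratory chain genes, 13 were higher in 22RV1 and 3 in LnCaP (5 without 22RV1 replicate 3), with a median of -0.08. In fatty acid synthesis, 3 of 16 were higher in each line (37.5% called, against 47.8% of all genes). ME1, malic enzyme, read 10.70, 10.80 and 10.80 on the LnCaP arrays and 7.04, 6.49 and 6.51 on the 22RV1 arrays, higher in LnCaP by 4.09 ± 0.14, with its lowest-mean probe set at 0.22 and not called, and ACSL1, which activates fatty acids, was at 3.56 ± 0.22. Cholesterol genes gave 10 of 18 higher in 22RV1 and 2 in LnCaP, but the former count was 3 without 22RV1 replicate 3 or LnCaP replicate 1, and 5 without LnCaP replicate 2. The median of the cholesterol list was -0.47 in untreated cells and -1.13 in treated cells. HMGCS1, which makes HMG-CoA, was at 9.43, 7.91 and 10.57 in LnCaP and 11.02, 10.65 and 11.40 in 22RV1. The LnCaP arrays of HMGCS1 were widely spread, and the difference of -1.72 ± 0.51 was -1.03 without LnCaP replicate 2. Of 15 polyamine genes, 9 were higher in LnCaP and 1 in 22RV1, led by the arginase ARG2 at 2.13 ± 0.41. AGMAT, at -1.51 ± 0.12, was the 1 higher in 22RV1, and its lowest-mean probe set gave -0.12 and was not called.

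Of 41 detoxification genes, 19 were higher in LnCaP and 14 in 22RV1, so 80.5% were called against 47.8% of all genes. Besides the AKR1C genes, the aldehyde dehydrogenases were divided. ALDH1A3 had values of 9.74, 9.72 and 9.81 in LnCaP against 4.29, 4.57 and 4.49 in 22RV1, while ALDH1A1 was higher in 22RV1 at -2.95 ± 0.25 and ALDH3A2 at -2.43 ± 0.12. Glutathione transferases of the mu class, which are near-identical, stood at -2.40 ± 0.16 for GSTM2, -1.88 ± 0.18 for GSTM4 and -1.58 ± 0.19 for GSTM1 but 1.96 ± 0.20 for GSTM3. GSTA1 was higher in LnCaP by 2.29 ± 0.25 and NQO1, a quinone reductase, by 1.78 ± 0.13, whereas GCLC, the limiting subunit in glutathione synthesis, was higher in 22RV1 at -2.22 ± 0.16. GSTP1, which is often silenced in prostate cancer, read 6.20, 5.83 and 6.22 on the LnCaP arrays and 5.77, 6.21 and 6.24 on the 22RV1 arrays, and with overlapping arrays was not called at 0.01 ± 0.14 (adjusted p = 0.976). In the retinoic acid list, 4 of 22 genes were higher in each line (36.4% called, against 47.8% of all genes). The receptor RXRA was higher in LnCaP by 2.13 ± 0.15. Among 25 metallothioneins and zinc transporters 4 were higher in LnCaP and 3 in 22RV1 (28% called, against 47.8% of all genes). MT1E, a metallothionein with close relatives, was higher in 22RV1 at -2.36 ± 0.52. SLC39A9, a zinc importer, was at 1.22 ± 0.13, with -0.0027 in its lowest-mean probe set. Of 19 cathepsins, 10 were higher in LnCaP and 3 in 22RV1, with CTSV at 2.80 ± 0.16 and CTSB at 1.77 ± 0.12.

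Cancer-testis antigens, whose expression is normally limited to germ cells, differed gene by gene. Of 29 measured, 9 were higher in LnCaP and 6 in 22RV1. CTAG2 was at 6.54, 6.07 and 6.20 in LnCaP and 12.44, 12.70 and 12.47 in 22RV1, higher in 22RV1 at -6.27 ± 0.12. MAGEA4 had values of 4.31, 4.53 and 4.57 in LnCaP against 9.67, 9.58 and 9.82 in 22RV1, at -5.22 ± 0.09, and SSX3 read 5.80, 5.51 and 5.56 on the LnCaP arrays and 10.85, 10.66 and 10.65 on the 22RV1 arrays, at -5.10 ± 0.11. MAGEA10 went the other way, as it was at 9.41, 8.38 and 7.95 in LnCaP and 4.97, 5.16 and 5.29 in 22RV1, with 3.44 ± 0.29, and PRAME was higher in LnCaP by 1.95 ± 0.25. SSX1 was at -4.34 ± 0.14, but 0.025 in its lowest-mean probe set. Members of the MAGEA, SSX and CTAG families are near-identical, and probe sets may read several. Of 21 imprinted genes, 7 were higher in each line. SGCE, a sarcoglycan next to PEG10, had values of 4.12, 3.52 and 3.83 in LnCaP against 9.90, 9.89 and 9.76 in 22RV1, at -6.03 ± 0.14, and PEG3 read 11.62, 11.82 and 12.15 on the LnCaP arrays and 6.001, 6.18 and 6.40 on the 22RV1 arrays. MEST and PLAGL1 were higher in 22RV1 at -2.23 ± 0.21 and -2.52 ± 0.24. Of 34 chromatin genes, 15 were higher in 22RV1 and 5 in LnCaP (2 without 22RV1 replicate 3, 3 without LnCaP replicate 1 or 2), with a median of -0.22. SMARCA1, a nucleosome remodeller, was at 3.92, 3.86 and 3.79 in LnCaP and 7.86, 7.93 and 7.56 in 22RV1, at -3.93 ± 0.20, with its lowest-mean probe set at -0.13 and not called. EZH2, the Polycomb methyltransferase, had values of 7.90, 7.68 and 7.83 in LnCaP against 9.15, 8.90 and 9.29 in 22RV1, higher in 22RV1 at -1.31 ± 0.16. KDM6A, which removes the mark that EZH2 writes, read 10.50, 10.61 and 10.29 on the LnCaP arrays and 7.90, 7.52 and 7.28 on the 22RV1 arrays, higher in LnCaP by 2.90 ± 0.16.

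Receptors for nicotine bear on the treatment the series was built for. Of 14 nicotinic acetylcholine receptor subunits, 3 were higher in 22RV1 (21.4% against 22.4% of all genes) and 0 in LnCaP by limma, the latter 1 without LnCaP replicate 2. CHRNB1, the muscle-type beta subunit, was at 5.17, 5.02 and 5.06 in LnCaP and 6.74, 6.73 and 6.93 in 22RV1, at -1.72 ± 0.13. CHRNA2 had values of 6.66, 6.63 and 6.80 in LnCaP against 8.05, 8.04 and 7.75 in 22RV1, at -1.25 ± 0.14, and CHRNE, which was picked after its values were seen, was at -0.65 ± 0.11. CHRNA5, an accessory subunit, read 7.31, 6.92 and 7.29 on the LnCaP arrays and 6.83, 6.94 and 6.99 on the 22RV1 arrays. With overlapping arrays it was not called at 0.25 ± 0.12 (adjusted p = 0.0922), but it was without LnCaP replicate 2, at 0.38, and with arrays centred on their medians, at 0.32 (adjusted p = 0.0452). Of 31 adrenergic, muscarinic, peptide and other receptors and related enzymes, 7 were higher in LnCaP and 5 in 22RV1. Their called share was 38.7%, against 47.8% of all genes. ADORA2B, an adenosine receptor, was higher in LnCaP by 2.11 ± 0.32 and PTGER4, a prostaglandin E receptor, in 22RV1 at -1.77 ± 0.43. Tubulins gave 4 of 15 higher in LnCaP and 6 in 22RV1, among them TUBB2B at -3.99 ± 0.21 and TUBA4A at 2.04 ± 0.14. Ribosomal protein genes, taken as a reference, had 6 of 27 called, the largest at -0.33, and 0 past 2-fold. Without 22RV1 replicate 2, 1 was higher in LnCaP and 2 in 22RV1, against 2 and 4 with all arrays, and the LnCaP count was also 1 without any other single array except LnCaP replicate 3.

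Chromosomes 7 and 12 differed from the others in the balance of calls. On chromosome 12, 271 of 674 genes were higher in 22RV1 (40.2%) and 64 in LnCaP (9.50%), with a median of -0.15. On chromosome 7, 195 of 539 were higher in 22RV1 (36.2%) and 81 in LnCaP (15.03%), with a median of -0.09. On the other 21 chromosomes the share higher in 22RV1 ran from 14.6% to 29.4%, the share higher in LnCaP from 21.5% to 36.3%, and medians from 0.0047 to 0.13. Treated arrays gave 270 and 77 on chromosome 12 and 196 and 79 on chromosome 7. Leaving out 1 array left 243 to 270 genes higher in 22RV1 on chromosome 12 and 174 to 188 on chromosome 7. DNA copy number was not measured, and its part in the result was not tested.

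**Figure D5:**
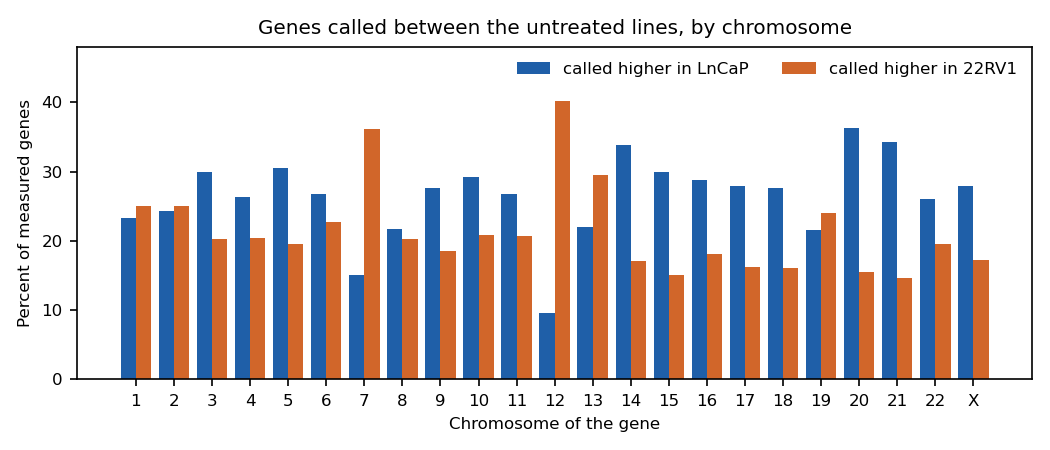
Percent of the measured genes of each chromosome that were called higher in LnCaP (blue) or in 22RV1 (orange) in untreated cells. On chromosomes 7 and 12 the orange bars, 36.2% and 40.2%, stand above every other orange bar, and the blue bars, 15.03% and 9.50%, below every other blue bar.

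Neighbouring genes past 2-fold in 1 direction, in runs of at least 4 measured genes, occurred at 6 places. SGCE, PEG10, PPP1R9A and PON1 on chromosome 7 were all higher in 22RV1, with a median of -5.80. SPINK1 ended a run on chromosome 5 with PPP2R2B, DPYSL3 and JAKMIP2, all higher in 22RV1, of which 3 were called the same way in treated cells. On the same chromosome OCLN, GUSBP14, GTF2H2B and NAIP were higher in LnCaP, by a median of 2.26. The rest were higher in 22RV1. They were HP1BP3, ECE1, ALPL, RAP1GAP and USP48 on chromosome 1, BORA, DIS3, PIBF1 and KLF5 on chromosome 13, and EPS8L1, TNNT1, TNNI3 and SYT5 on chromosome 19. The longest run of called genes, picked after its values were seen, held 21 genes of chromosome 2 from PPP4R3B to SLC1A4, all higher in 22RV1 with a median of -0.90. It includes REL, an NF-kappaB subunit, and the nuclear exporter XPO1, 10 of its genes were past 2-fold, and 19 were called the same way in treated cells.

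Where a gene had several probe sets, they mostly gave 1 direction. Of 676 genes past 2-fold with several probe sets, all of the gene's probe sets had the same sign in 599, and all were called in the same direction in 475. Over all genes, 4310 of 11963 had several probe sets. The 227 called genes that the naming rule took include genes with 1 probe set, whose difference cannot change with the choice of probe set. The counts out of 227 therefore understate how much this choice matters. Of the 227, the mean over a gene's probe sets gave a difference smaller by over 1.5 times in 36 and larger in 2, with 1 call lost (KLK2). The lowest-mean probe set gave a smaller difference in 57 and a larger one in 5, with 17 calls lost and 9 signs turned. Some genes kept the call with a much smaller difference and are not marked where they are named above. PCDH7 gave -1.71 with the mean and -0.51 with the lowest-mean probe set, GDF15 2.38 and 0.70, and PRKD1 2.74 and 0.61. Likewise IL1RN gave 1.03 and 0.32, ERBB4 -1.88 and -0.62, APOC1 -1.69 and -0.60, and GATA3 -2.35 and -1.88. In 3 genes, probe sets past 2-fold pointed in opposite directions. These were HLA-DQB1, HNRNPH1, a splicing factor with probe sets from -1.23 to 1.51, and SUN1, a nuclear envelope protein with probe sets from -1.15 to 1.23.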

How the data were processed

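Total RNA of 22RV1 and LnCaP cells, untreated or treated with nicotine, was labelled and hybridised to Affymetrix arrays, per the labels' protocols. The authors deposited log2 values for 22277 probe sets on 12 arrays, and the normalization is not given in the sources used here. Precision is limited by the number of arrays. Of the probe sets, 19070 have 1 gene symbol in the platform annotation, 1043 have several and 2164 are unlisted and stay unnamed here. Each of 11963 genes was represented by its brightest probe set on average. One limma 3.58.1 model (R 4.3.3) covered all 12 arrays (group means, eBayes, no covariate, no filter), the fit was tested on simulated data, and p-values are two-sided and Benjamini-Hochberg adjusted over all genes. Gene symbols were listed in 50 lists, of which 1181 of 1378 symbols were measured. The comparison, the lists and the rule for named genes were chosen with earlier results of these data known. The rule took the 15 largest differences in each direction, up to 6 called members past 2-fold of each list, and a fixed set of prostate, immune and nicotinic genes. Other list members, defining markers and runs were picked after their values were seen. Some genes that the rule lists were not analysed here. Alternatives are given in the closing section.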

Additional observations from a re-analysis of the deposited data

How the results depend on the processing

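With probe sets below 6.66 in both lines left out, 4810 of the remaining 7261 genes were called. Under the other alternatives run, the number called of 11963 genes stayed between 5114 and 6450 (array weights), with 2 exceptions. A test against a 2-fold minimum called 843 genes, 388 higher in LnCaP and 455 in 22RV1, and a fit of all 22277 probe sets called 9729. Leaving out 1 array gave 5114 to 5508 genes, and 1681 to 1738 past 2-fold. Over the other settings 1463 (of the 7261 genes above) to 1709 genes were past 2-fold. Centring arrays on their medians made 60.1% of called genes higher in LnCaP, against 53.2% as deposited. With the replicate number as a replicate block, 6292 genes were called and 1709 were past 2-fold. Deviations of same-numbered arrays correlated between the lines at 0.08, 0.15 and 0.25, so 1 pair lay under 0.1, 22RV1 replicate 1 correlated best with another number, and the block is given only here. The pair at 0.25 was that of the arrays numbered 3. Across the lines, these 2 arrays correlated with the arrays of other numbers at -0.21 to -0.11. What the arrays numbered 3 share was not tested. Without the 4 arrays of that number, 5762 genes were called and 1688 were past 2-fold.

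The 233 named genes kept direction and call in 3668 of 3712 comparisons with an alternative, lost the call in 29, gained it in 6 and turned sign in 9. For genes with a single probe set, the mean and lowest-mean settings repeat the main difference, so those comparisons were fixed in advance. The sign turned only with the lowest-mean probe set, at 0.0068 for EPHA3, 0.031 for SPDEF, -0.88 for DDC, 0.020 for KRT7, 0.15 for CDKN1C, 0.016 for CDK2, -0.019 for IFI44, 0.025 for SSX1 and -0.0027 for SLC39A9, and the cause was not tested. Of list counts, 154 of 2397 moved by over 1.5 times, and 26 of 799 list medians moved. Leukocyte markers had no member left with dim probe sets left out. Dim probe sets limit what a low value can show.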

Other observations

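Large differences also lay in genes outside the lists and below the leading 15, which were picked after their values were seen. Higher in 22RV1, PTPRB, a receptor phosphatase, was at 4.62, 4.85 and 4.34 in LnCaP and 10.45, 10.76 and 9.99 in 22RV1, with a difference of -5.80 ± 0.23. SPTBN1, a spectrin of the membrane skeleton, had values of 4.58, 4.54 and 4.15 in LnCaP against 10.28, 10.28 and 9.91 in 22RV1, at -5.73 ± 0.16. SFN, the epithelial 14-3-3 protein sigma, read 7.79, 7.69 and 7.46 on the LnCaP arrays and 12.80, 12.84 and 13.33 on the 22RV1 arrays, at -5.34 ± 0.15. In each of these genes no array overlapped between the lines. FKBP1B, an immunophilin that binds calcium release channels, was at -5.89 ± 0.15, NELL2, a secreted neural protein, at -5.40 ± 0.12, and SERPINB1, an inhibitor of neutrophil proteases, at -5.37 ± 0.17. SLC2A10, a facilitative transporter of the glucose family, was at -5.37 ± 0.47 with the third 22RV1 array lowest, at 8.29.

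Higher in LnCaP, RLN1, a relaxin, was at 11.35, 10.78 and 9.89 in LnCaP and 7.07, 5.33 and 6.07 in 22RV1, at 4.52 ± 0.60. Its arrays were spread in both lines without meeting. NRP1, a coreceptor for semaphorins and VEGF, had values of 10.44, 10.54 and 10.13 in LnCaP against 5.54, 6.05 and 6.01 in 22RV1, at 4.50 ± 0.14. BHLHE40, a transcription factor of the circadian and stress response, read 8.34, 8.23 and 9.03 on the LnCaP arrays and 4.08, 4.35 and 4.26 on the 22RV1 arrays, at 4.30 ± 0.21. DIO1, which converts thyroid hormone to its active form, was at 4.13 ± 0.21, ASS1, the argininosuccinate synthase of arginine synthesis, at 3.84 ± 0.14, and PRKACB, a catalytic subunit of protein kinase A, at 3.85 ± 0.12. TM4SF1, a small surface protein, was at 4.12 ± 0.51 with the third LnCaP array lowest, at 7.51.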
